A study of Sus scrofa with 4 samples.

Results

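DNA methylation and Polycomb repression are linked ways of keeping genes silent through cell division, and the genes described here encode their core enzymes and partners. Of 9 genes named, 6 had a probeset annotated with that gene alone: the DNA methyltransferases DNMT1, DNMT3A and DNMT3B, the Polycomb proteins EZH2 and EED, and the methyl-DNA reader MBD2. UHRF1, HELLS and SUZ12 had none and are not analysed here. Each gene was represented by its brightest probeset, the one with the highest mean log2 signal over the 4 arrays. All 6 passed the filter on dim probesets, among 5272 genes that did so. DNMT1 was picked because its signal was lower in cultures from deep wounds, so its difference between depths is given as a description, without a test.

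The arrays carried RNA of confluent dermal fibroblasts, grown in medium with fetal bovine serum from biopsies of back wounds of Duroc pigs taken at 20 weeks. The deep group was 2 cultures from deep wounds, and the shallow group was 2 cultures from shallow wounds. The series places a deep and a shallow wound on each of 2 pigs. The titles name each array's partner by a sample number that is not itself defined, so which arrays belong to pig 1 and which to pig 2 rests on reading the samples in their listed order. Signals are MAS5 intensities on a linear scale, values given as mean ± SD cover the n = 2 arrays of a depth, and differences are deep minus shallow on the log2 scale.

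DNMT1 copies methylation onto the new DNA strand at replication, and UHRF1 guides it to sites that carry the mark on the old strand only. DNMT3A and DNMT3B set methylation at new sites, HELLS is a remodeller that opens chromatin to them, and MBD2 binds methylated DNA and recruits a repressor complex. EZH2 is the enzyme of Polycomb repressive complex 2 (PRC2), which methylates histone H3 at silenced genes. EED and SUZ12 are the subunits it needs for activity. In mammalian cells, DNMT1, UHRF1, HELLS and EZH2 are known for being transcribed mostly while cells divide, and resting cells rely more on the related enzyme EZH1.

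The arrays differed in more than wound depth. All 10 measured fibroblast markers were above the highest of 23 control probesets for absent transcripts on every array. All 7 measured epithelial markers were above it on the shallow array of pig 1, where their summed signal was 5501, against 279 and 130 on the deep arrays and 193 on the shallow array of pig 2. On the other 3 arrays CDH1, KRT18, KRT19 and DSP were below it, while KRT8 was above it on all 4 arrays, SFN also on the deep array of pig 1 and the shallow array of pig 2, and EPCAM also on the deep array of pig 1. Each of the 10 fibroblast markers read higher on either deep array than on any shallow array, where 23.2% of all probesets did, with a median log2 difference of 0.98 and 0 past the threshold. Of 6 smooth muscle and pericyte markers past the filter, 1 rose past the threshold, the smooth muscle actin ACTG2. It read 4269 and 2914 in deep and 492 and 717 in shallow (2.57, limma, adjusted p = 0.0351). That call was lost without the pig as a block and without the filter on dim probesets, among other settings. The median of the 6 was 0.88, and the lowest difference was -0.05, for TAGLN. Actin probesets near the 3' and 5' ends of the transcript gave a 3' to 5' ratio, which rises when RNA or its labelled copies are shortened, of 3.28 and 6.10 on the deep arrays and 1.96 and 2.41 on the shallow arrays. Across all 14399 probesets tested, limma called 49 at an adjusted p under 0.05, or 0.34% of them, with 15 lower in deep (0.104%) and 34 higher (0.236%).

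The maintenance methyltransferase DNMT1 had the lower signal in deep cultures for which it was chosen. It read 398 and 272 on the deep arrays of pig 1 and pig 2, against 1782 and 742 on the shallow arrays. Both deep arrays lay below both shallow arrays, and the shallow array of pig 1 stood apart at the top. The means were 335 ± 89.2 in deep and 1262 ± 736 in shallow, a log2 difference of -1.80, with -2.16 in pig 1 and -1.45 in pig 2. Of the 14399 tested probesets, 161 had a more negative difference, a rank given as a description, since DNMT1 was chosen for its lower signal. Without the shallow array of pig 1, which also carried the epithelial signal, the log2 difference was -1.17. In a culture measured in bulk, fewer cells that express a gene and less of its RNA per cell cannot be told apart.

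DNMT1 had 4 probesets, and they did not all read the same way. The second brightest was derived from the same transcript as the first and read 110 and 65.8 on the deep arrays, against 355 and 148 on the shallow arrays. Its log2 difference was -1.43, and the groups again did not overlap. The 2 others failed the filter on dim probesets. One read 18.9 and 2.33 in deep and 35.8 and 18.7 in shallow, with both deep values below the absent-transcript controls. The other read 18.1 and 17.9 in deep and 9.44 and 1.13 in shallow, below those controls on all 4 arrays, so its opposite direction has no measured level behind it.

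The de novo methyltransferases read slightly higher in deep cultures, by less than the fit could tell from 0. DNMT3A read 154 and 154 on the deep arrays and 107 and 134 on the shallow arrays. Its signal was close to equal in the deep cultures and above both shallow values, but the difference was small against the error of the fit (0.36 ± 0.33 SE, 95% interval -0.40 to 1.12; limma, adjusted p = 0.686). DNMT3B was dim, at 38.1 and 50.4 on the deep arrays and 27.4 and 36.6 on the shallow arrays. The highest absent-transcript control read 21.8 and 30.9 on the deep arrays and 14.8 and 13.6 on the shallow arrays, so DNMT3B was above it everywhere but not by much. That control and DNMT3B were both higher on the deep arrays. Its log2 difference was 0.47 ± 0.44 (95% interval -0.56 to 1.49; limma, adjusted p = 0.700), and the intervals of both genes include changes of either sign.

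**Figure D1:**
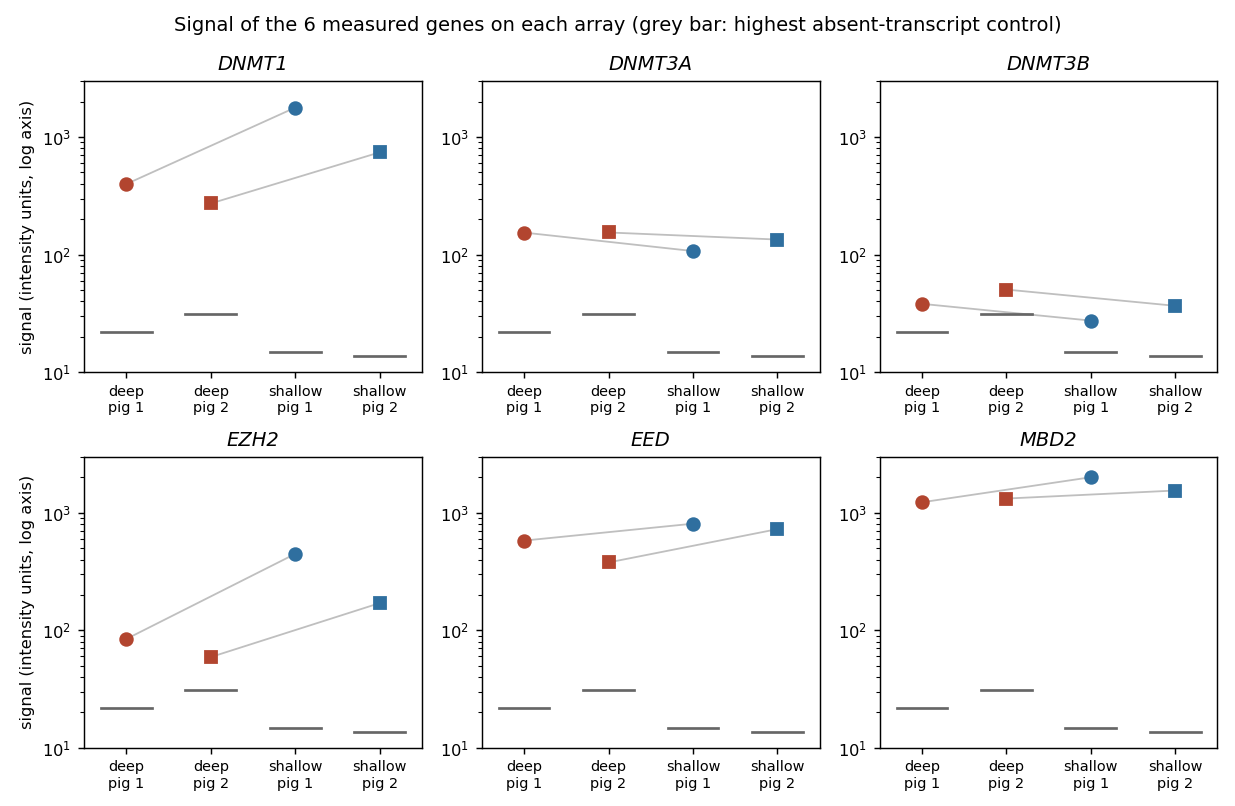
Signal of each gene's brightest probeset on the 4 arrays, on a log axis in intensity units, with circles for pig 1, squares for pig 2, red for deep and blue for shallow. Thin lines join the arrays read as the same pig, and grey bars mark the highest absent-transcript control of each array. DNMT1 and EZH2 read highest on the shallow array of pig 1 (1782 and 447), while DNMT3A stayed between 107 and 154.

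EZH2, the PRC2 enzyme, had the most negative difference of the 6 genes and did not pass the threshold. It read 84.3 and 59.1 on the deep arrays, against 447 and 170 on the shallow arrays. Both deep values were below both shallow values, and as for DNMT1 the shallow array of pig 1 was the highest. The means were 71.7 ± 17.8 in deep and 309 ± 196 in shallow, and the geometric mean was 3.91-fold lower in deep. The log2 difference was -1.97 ± 0.36 (SE; 95% interval -2.79 to -1.14), with -2.41 in pig 1 and -1.53 in pig 2 (limma, adjusted p = 0.0771). Without the pig as a block the adjusted p was 0.243 (limma). Without the shallow array of pig 1, which also carried the epithelial signal, the difference was -1.27, and without that of pig 2 it was -2.66. With only probesets above the 60th percentile of signal tested, EZH2 passed (limma, adjusted p = 0.0242), as did 217 of 9600 probesets.

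EED, the subunit that binds the histone mark and stimulates EZH2, was lower in deep by a smaller amount. It read 580 and 378 on the deep arrays and 808 and 726 on the shallow arrays. The groups did not overlap, and here the low value was that of the deep array of pig 2. The log2 difference was -0.71 ± 0.28 (95% interval -1.36 to -0.06; limma, adjusted p = 0.315). A second EED probeset, from another transcript fragment, read 101 and 107 in deep and 158 and 159 in shallow. Its arrays agreed closely within each depth, and its difference was -0.61 ± 0.33 (limma, adjusted p = 0.462). With the actin ratio in the fit in place of the pig, the EED difference was -0.01 ± 0.52 (SE), that of EZH2 was -0.94 ± 0.84 and that of DNMT1 was -0.79.

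MBD2, the methyl-DNA reader, read 1228 and 1321 on the deep arrays and 2007 and 1547 on the shallow arrays. The groups did not overlap, but in pig 2 the arrays were close (log2 difference -0.23, against -0.71 in pig 1). The overall difference was -0.47 ± 0.28 (95% interval -1.11 to 0.17; limma, adjusted p = 0.505). A second probeset gave -0.64 ± 0.27 (limma, adjusted p = 0.350), reading 584 and 483 in deep and 986 and 691 in shallow. The third was below the absent-transcript controls on all 4 arrays, at 3.04 and 4.00 in deep and 14.6 and 9.23 in shallow.

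**Figure D2:**
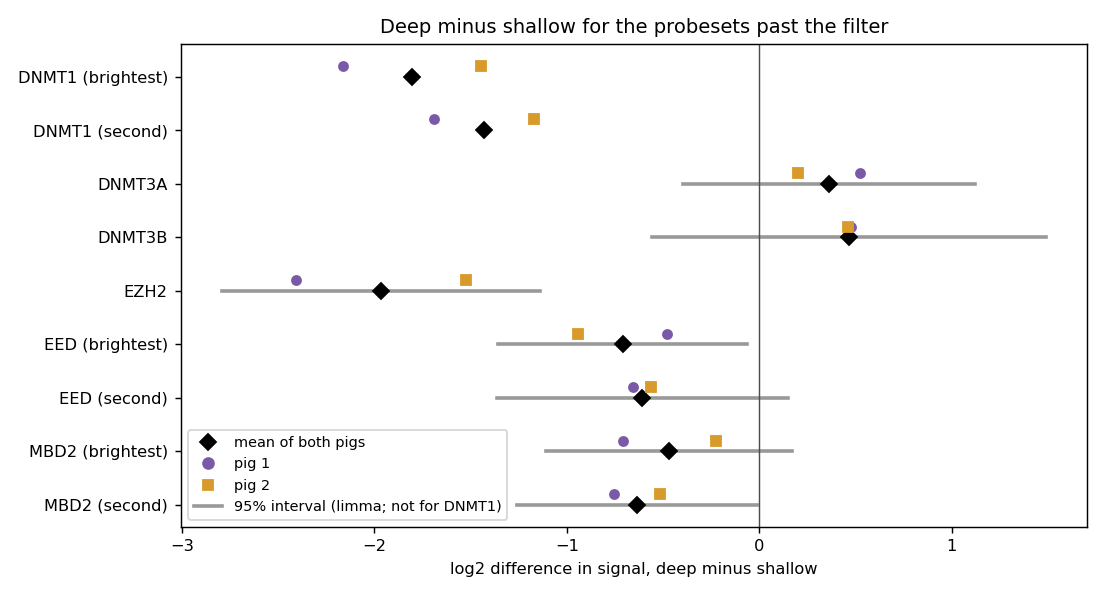
Log2 difference in signal, deep minus shallow, for the 9 probesets of the 6 genes that passed the filter. Diamonds are the means, circles and squares the single pigs and grey bars the 95% intervals of the limma fit, which DNMT1 lacks because it was chosen on this difference. The interval of EZH2 ran from -2.79 to -1.14. Those of DNMT3A, DNMT3B, the brightest MBD2 probeset and the second EED probeset crossed 0.

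Apart from DNMT1, 0 of 5 genes passed an adjusted p of 0.05 (limma). For 2 of 5, EZH2 and EED, the unadjusted p was under 0.05 (limma), as it was for 1995 of the 14399 probesets tested. Both deep arrays were below both shallow arrays for 3 of these 5, EZH2, EED and MBD2, where 25.5% of all probesets were. Both deep arrays were above both shallow arrays for the other 2, DNMT3A and DNMT3B, where 23.2% of all probesets were. Over 5 genes these counts describe the genes and carry no test. The median difference of all tested probesets was -0.02.

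The profile of EZH2 over the arrays was close to that of DNMT1. With each gene's log2 signals centred on their own mean, the root-mean-square distance between them was 0.09, and only 3 of the other 5271 genes lay nearer to DNMT1. Those were MRTO4, a ribosome assembly factor, at 0.05, NKIRAS1, an inhibitor of NF-kappa-B signalling, at 0.06, and ZWILCH, a kinetochore protein, at 0.07. TEX30 came next after EZH2, at 0.10. All of these had the array order of DNMT1, which follows from their nearness to it over the same 4 arrays. The shallow array of pig 1 was highest, that of pig 2 next and the deep array of pig 2 lowest. ZWILCH, for instance, read 92.0 and 65.3 in deep and 431 and 157 in shallow, and its log2 difference was not past the threshold. EED lay at 0.67 with 513 genes nearer, MBD2 at 0.77 with 871 nearer, and DNMT3A and DNMT3B at 1.24 and 1.33 with 4012 and 4406 nearer. The measure rests on 4 arrays that share 2 pigs and is a description.

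**Figure D3:**
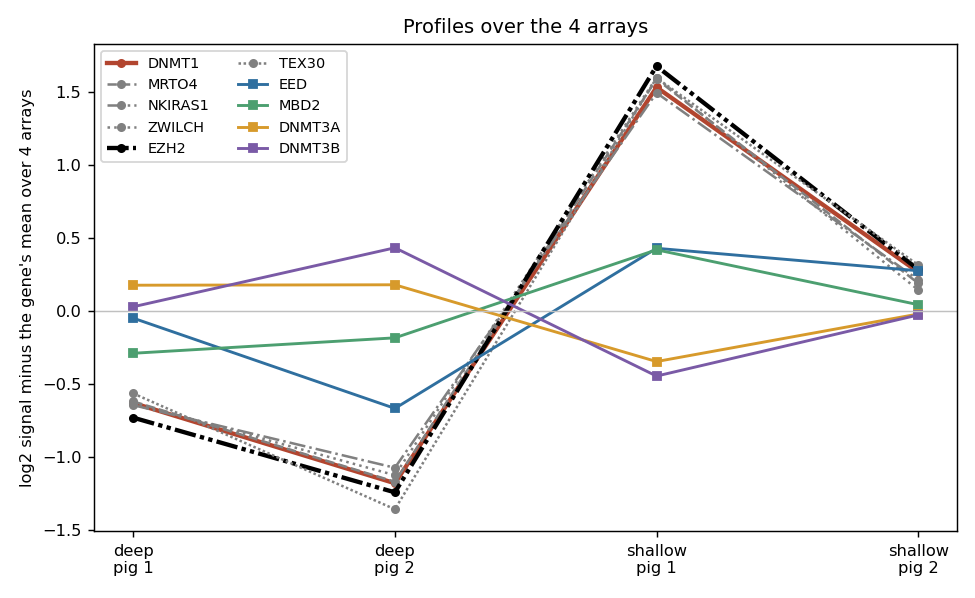
Log2 signal of each gene minus its own mean over the 4 arrays, for DNMT1, the 5 genes with the nearest profile (EZH2 among them) and the remaining measured genes. Lines only guide the eye. DNMT1 and EZH2 ran together, while DNMT3A and DNMT3B were lowest on the shallow array of pig 1, where DNMT1 and EZH2 were highest.

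Other subunits of the Polycomb complexes showed differences nearer to 0 than EZH2, and none passed. Of 9 further PRC2 genes listed, 4 had a probeset annotated with that gene alone. EZH1 had none and was not measured. Among the 4 measured genes 0 passed in either direction, with a median log2 difference of -0.03. MTF2, which helps bring PRC2 to unmethylated CpG islands, had the largest, at 204 and 142 in deep and 441 and 259 in shallow (-0.99, limma, adjusted p = 0.201). The related accessory protein PHF1 differed by 0.28 and JARID2, which recruits PRC2, by -0.06. Of 6 genes of Polycomb repressive complex 1, which reads the PRC2 mark and ubiquitinates histone H2A, 0 passed, with a median of -0.05. The differences were 0.37 for SCMH1, -0.32 for RING1, a ubiquitin ligase of the complex, and -0.17 for PCGF3. Of 7 genes that oppose Polycomb, 0 passed, with a median of -0.14. The trithorax-group subunit ASH2L differed by -0.40, the deubiquitinase partner ASXL1 by -0.24 and the demethylase KDM6A by 0.21.

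None of the remaining measured genes of DNA methylation passed either. Of 5 further genes listed with the writers and readers, partner proteins included, 0 passed, with a median of 0.11. The methyl-DNA binder MBD1 read 208 and 216 in deep and 287 and 226 in shallow (-0.27). USP7, a deubiquitinase that stabilises DNMT1 and UHRF1, differed by 0.19, and the methyl-DNA binding repressor ZBTB33 by 0.17. Of 10 genes listed as tied to demethylation, 5 had a probeset annotated with that gene alone. TET1, TET2, TET3 and TDG had none and were not measured. Among the 5 measured genes 0 passed, with a median of 0.03. GADD45G differed by 0.64, GADD45A by 0.60 and GADD45B by -0.37. These are stress-induced genes proposed to promote demethylation. GADD45A read 1052 and 1085 in deep and 716 and 696 in shallow. Of 6 genes of histone H3 lysine 9 methylation and heterochromatin, 0 passed, with a median of -0.14. The methyltransferase SUV39H2 read 158 and 130 in deep and 340 and 208 in shallow (-0.89, limma, adjusted p = 0.257). EHMT2 differed by -0.48 and the histone chaperone DAXX by -0.16.

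Methyltransferases draw on S-adenosylmethionine, and the genes that supply it differed most through AHCY. AHCY removes the inhibitory by-product of methylation. It read 175 and 211 in deep and 972 and 284 in shallow (-1.45, limma, adjusted p = 0.225), and its high value was again that of the shallow array of pig 1. Without that array the difference was -0.57. The folate enzymes MTHFD1 and MTHFD2 differed by -0.71 and -0.35, and 0 of 6 genes of the list passed, with a median of -0.33.

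The cell division lists had lower medians than the Polycomb, DNA methylation, heterochromatin and S-adenosylmethionine lists, in the direction of DNMT1 and EZH2. Of 12 DNA replication genes past the filter, 0 passed the adjusted threshold, and all 12 had both deep arrays below both shallow arrays, where 25.5% of all probesets did, with a median difference of -1.66. RRM2, a subunit of ribonucleotide reductase, read 134 and 157 in deep and 2051 and 466 in shallow (-2.75, limma, adjusted p = 0.0771). The replicative helicase subunit MCM3 differed by -2.16. The histone chaperone ASF1B differed by -2.05, with the deep array of pig 2 below the absent-transcript controls. Of 9 mitosis genes, 1 fell past the threshold, CENPF, where 0.104% of all probesets did, and the median was -2.39. CENPF, a kinetochore protein, read 83.6 and 9.45 in deep and 511 and 310 in shallow (limma, adjusted p = 0.0453), and the lower deep value was below the absent-transcript controls. Its call was lost in 8 of 13 alternative settings, among them the fit without the pig as a block (limma, adjusted p = 0.243). The mitotic kinase PLK1 was below those controls on both deep arrays and at least 4.35-fold lower than in shallow (limma, adjusted p = 0.118), and CDC20 differed by -2.51. With the shallow array of pig 1 left out, the medians were -0.79 for replication and -1.51 for mitosis. With the shallow array of pig 2 left out they were -2.44 and -3.28, in a fit whose only shallow array carried the epithelial signal. With the pairing crossed, 2 of 12 replication and 7 of 9 mitosis genes passed, where 202 of all 14399 probesets did. Above the 60th percentile of signal 2 of 8 and 4 of 6 did, where 217 of 9600 probesets did. The summed signal of the epithelial markers was highest on the array where the summed signals of both lists, DNMT1 and EZH2 were highest. The actin ratio and the summed signals of the fibroblast and of the smooth muscle and pericyte markers were higher on both deep arrays than on both shallow arrays. With the actin ratio in the fit in place of the pig, the medians were -1.45 for replication and -2.32 for mitosis. Since the ratio was higher on both deep arrays, that fit separates it poorly from depth. The part of the ratio and of the markers in the differences was not tested.

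The E2F and RB pathway switches on DNMT1, UHRF1 and EZH2 as cells enter the cycle. Only 4 of its 16 listed genes had a probeset annotated with that gene alone, E2F3, TFDP2, RBL2 and CDK2. E2F1, E2F2 and RB1 were among those not measured. Among the 4 measured genes 0 passed, with a median of 0.01 that does not stand for the pathway. CDK2, the kinase that drives S phase, read 156 and 116 in deep and 512 and 247 in shallow (-1.40, limma, adjusted p = 0.113). TFDP2, an E2F partner, differed by 0.50, and RBL2, the pocket protein of resting cells, by 0.06. RBL2 read 377 and 204 in deep and 191 and 372 in shallow, with opposite directions in the pigs.

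**Figure D4:**
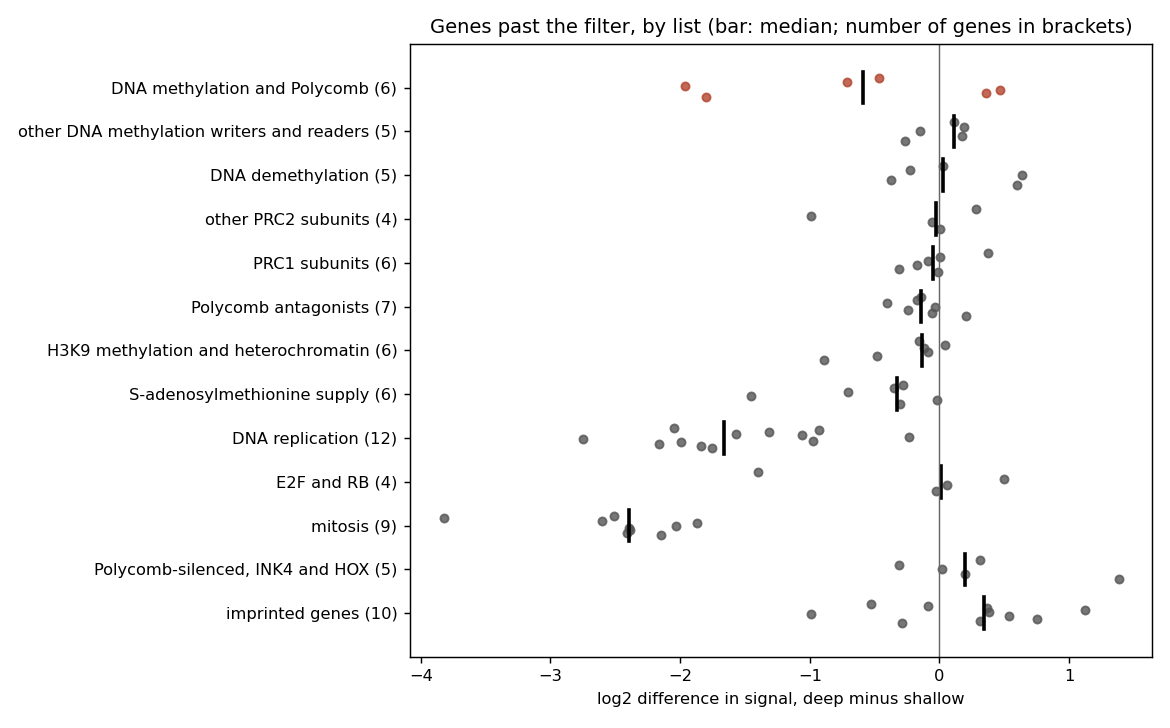
Log2 difference in signal, deep minus shallow, for each gene past the filter, by list, with black bars at the medians. The replication and mitosis lists lay lowest (medians -1.66 and -2.39), and the other Polycomb and DNA methylation lists had medians between -0.14 and 0.11.

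Genes that DNA methylation or Polycomb keep silent in other systems showed no common direction. Of 5 cell-cycle inhibitor and homeobox genes past the filter, 0 passed, with a median of 0.20. CDKN1A, the cell-cycle inhibitor p21, read 3350 and 6567 in deep and 1376 and 2353 in shallow (1.38, limma, adjusted p = 0.0826). HOXD10 and HOXD8, which encode positional identity, differed by 0.31 and -0.31. CDKN2B, an inhibitor encoded at a locus Polycomb silences in dividing fibroblasts, failed the filter, with at most 5.39 on any array. Of 10 imprinted genes, whose single active copy is set by DNA methylation, 0 passed, with a median of 0.34. NDN, which restrains growth, read 239 and 465 in deep and 146 and 162 in shallow (1.12, limma, adjusted p = 0.192). GRB10, an inhibitor of insulin signalling, differed by 0.75. The zinc finger gene PLAGL1 differed by -0.99, with 93.8 on the deep array of pig 2 and between 264 and 313 on the others.

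Across settings, the differences of DNMT1, EZH2, EED, MBD2 and DNMT3A had the same sign in all 13 alternative fits. Most of those fits could not have changed a sign. Changing the block, the pairing, the filter, the floor or the trend option left these differences as they were. Leaving out 1 array cannot turn the sign of a gene whose groups do not overlap, as held for these genes. Only centring, quantile normalization and the actin ratio could have turned it. With 1 array left out, DNMT1 ranged from -2.44 to -1.17, EZH2 from -2.66 to -1.27, EED from -1.02 to -0.40 and MBD2 from -0.66 to -0.28. DNMT3A ranged from 0.20 to 0.52 and DNMT3B from 0.26 to 0.68. The only change of sign was DNMT3B with the actin ratio in the fit, at -0.10.

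**Figure D5:**
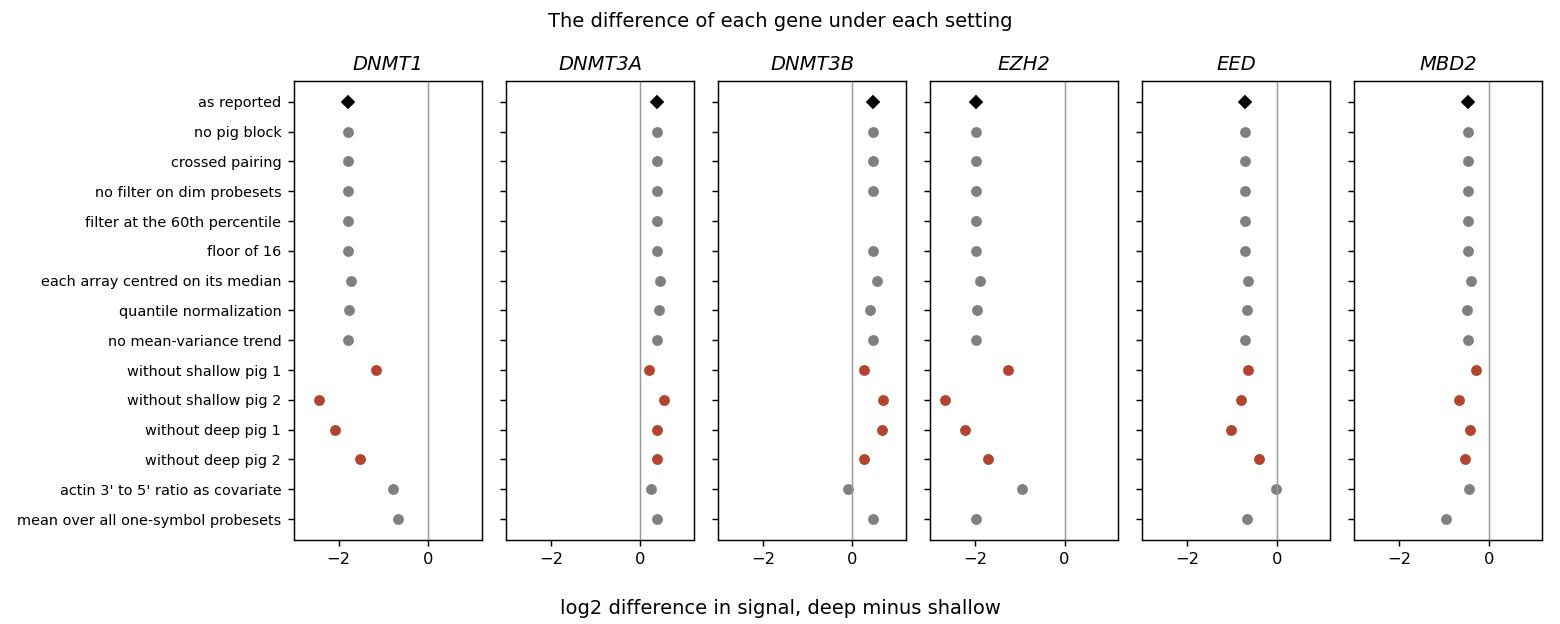
Log2 difference in signal, deep minus shallow, of each gene under each processing setting. Black diamonds are the reported values, red points leave out 1 array, and the bottom row averages in probesets at background. EZH2 lay between -2.66 and -0.94, and DNMT3B crossed 0 with the actin ratio as covariate (-0.10).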

How the data were processed

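The authors deposited 1 linear MAS5 intensity for each probeset on each array; the submitters' processing notes name MAS5 and GCOS 1.0. With 2% of probesets trimmed at each end, every array had a mean of 250.1, so the arrays had been scaled to a common level. The table held no detection calls. Here 124 control probesets were left out, signals under 1 were set to 1 (2547 of 95996 values) and log2 was taken. Of 23999 probesets, the 14399 whose mean log2 reached the 40th percentile (a signal of 27.1) were tested. Genes were named through the platform annotation, in which 10069 probesets have 1 symbol, 198 have several and 13732 have none.

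The model, fitted in R 4.3.3 with limma 3.58.1 (lmFit, then eBayes with its trend option), had terms for depth and for the pig as a block. Tests were two-sided, with Benjamini-Hochberg adjustment over all 14399 probesets. The pairing comes from the series' description; in the data, the deviations of a pig's 2 arrays from the mean of their depth correlated at -0.01 across probesets. Each probeset then has 1 residual degree of freedom, and eBayes added 6.88. The code was tested on simulated data. Precision is limited by the few arrays. The absent-transcript controls are 23 tag and tryptophan-gene probesets. All 6 genes, then the 3 genes per list that differed most in absolute size and the 5 genes nearest to DNMT1 in profile, were named; CDKN2B, ACTG2 and the single epithelial markers were added after their values were seen. The genes, lists and tests were chosen with earlier results of these data known.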

Additional observations from a re-analysis of the deposited data

How the results depend on the processing

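The number of probesets called by limma changed with most settings, so a single call near the threshold depends on them. From 49, it was 0 without the pig as a replicate block (1885 at an unadjusted p under 0.05), 0 without the filter on dim probesets (2246) and 0 with the actin ratio as covariate (283), an alternative chosen after seeing the data. It was 3 without the mean-variance trend, 5 with each array centred on its median, 6 with a floor of 16, 202 with the pairing crossed and 217 above the 60th percentile of signal. With 1 array left out and no block it ranged from 0 to 1597 (172 with the shallow array of pig 1 left out, 1597 with that of pig 2 left out), where the remaining array of a depth is assumed to vary like the others. The prior degrees of freedom, estimated from 1 residual per probeset, were 6.88 as reported, 8.91 with the pairing crossed and 9.33 above the 60th percentile. Of the 5 genes tested, 1, EZH2, passed above the 60th percentile, where DNMT3B was not tested, and between 0 and 1 passed with 1 array left out; under the other settings 0 passed. Leaving out the replicate block changed no call among the 5. Among the named genes, signs turned as follows. With the actin ratio as covariate the log2 differences were -0.10 for DNMT3B, 0.58 for GADD45B, 0.13 for ASF1B, -0.23 for TFDP2, 0.58 for PLAGL1, -0.35 for USP7, -0.13 for ZBTB33, -0.090 for PHF1, 0.20 for JARID2, -0.11 for HOXD10 and 0.11 for MTHFD2. JARID2 was 0.014 with arrays centred and 0.018 after quantile normalization. Without the shallow array of pig 1 they were -0.42 for RBL2, -0.15 for PHF1, 0.16 for JARID2 and 0.027 for MTHFD2, and without that of pig 2 0.015 for GADD45B and 0.030 for HOXD8. Without the deep array of pig 1 they were -0.39 for RBL2 and 0.048 for DAXX, and without that of pig 2 0.21 for GADD45B and -0.052 for USP7. The causes were not tested.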
